A study of Mus musculus with 12 samples.

Results

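The genes described here encode the subunits of ion channels that open on binding glutamate, GABA or glycine: AMPA, NMDA, kainate and delta glutamate receptors, GABA-A receptors with their rho subunits, and glycine receptors. They were taken by symbol, as every protein-coding gene named Gria, Grin, Grik, Grid, Gabr (other than the metabotropic Gabbr genes) or Glr followed by a subunit number or letter. This gave 42 of the 48709 genes listed in the count files, and 36 of the 42 passed the filter on low counts and were tested. The rule itself used no measured value, but the set was chosen with earlier results of these data known.

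Ionotropic receptors are rings of subunits around a channel. AMPA (Gria), kainate (Grik) and NMDA (Grin) receptors pass cations and excite a neuron, NMDA receptors need the obligatory subunit encoded by Grin1, and the Grin2 genes encode the glutamate-binding partners that set their kinetics. GABA-A receptors are built mostly from alpha, beta and gamma subunits and, like glycine receptors, pass chloride. In the embryonic cortex, before most synapses form, young neurons have a high internal chloride level, so GABA and glycine depolarise them, and glutamate and GABA act on migrating neurons and on progenitors. Cortical excitatory neurons arise from the progenitors of the cortex itself, whereas most cortical GABAergic interneurons migrate in from the ventral forebrain.

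RNA was sequenced from embryonic cortex of C57BL/6J mice at age E15.5, in 4 control libraries, 4 libraries of a BAF155 conditional knockout (cKO) and 4 libraries labelled Pax6 cKO. BAF155, the product of Smarcc1, belongs to the core of the BAF complex, which remodels chromatin, and Pax6 is a transcription factor of cortical progenitors. The series compared each cKO with control. The labels name no Cre driver, no control genotype and no agent, and they do not say whether a library came from 1 embryo, from a pool or from a repeat preparation. The p-values therefore rest on a spread between libraries that may be technical. Bulk counts cannot tell fewer cells of a type from less RNA per cell.

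Library totals ran from 15.2 to 32 M counts. Levels are given as CPM, counts per M of the TMM-scaled library size, and between genes as RPKM, the same value per kilobase of annotated exon. Smarcc1 was at 219.7 to 360.6 CPM in control, at 114.9 to 138.8 CPM in the BAF155 cKO and at 177.5 to 193.8 CPM among those labelled Pax6 cKO. Pax6 counts went against the label, at 82.0 to 124.7 CPM in control, 273 to 369 CPM in the BAF155 cKO and 379.9 to 399.3 CPM in the libraries labelled Pax6 cKO. Counts over a whole gene may include parts outside a deletion. Xist, the RNA of the inactive X chromosome, put all 4 BAF155 cKO libraries (1811 to 3115 CPM) and control replicates 3 and 4 (about 964 CPM each) as female and the other 6, at 5.75 CPM or less, as male. All controls were in sequencing lane 8, a lane that held no other group, so lane and group cannot be told apart. Mitochondrial reads were 1.21% to 2.27% of the total in control, 1.57% to 3.27% in the BAF155 cKO and 2.04% to 2.92% among those labelled Pax6 cKO. BAF155 cKO replicates 3 and 4, alone in lane 3, also held 25.9 and 156.5 CPM of the liver gene Alb, against at most 1.11 CPM elsewhere.

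In the control cortex the AMPA subunit gene Gria2, whose edited product makes AMPA receptors nearly impermeable to calcium, stood first in mean level with 48.5 ± 12.1 RPKM (SD, n = 4). Next came Glra2, the fetal glycine receptor alpha subunit, with 36.1 ± 9.27 RPKM, and the kainate subunit gene Grik5 with 31.6 ± 2.83 RPKM. Gria1 followed with 27.0 ± 2.43 RPKM and Grik3 with 24.7 ± 4.15 RPKM. The ranges of neighbours in this order overlapped over the 4 libraries. Gabra2 led the GABA-A alpha genes with 13.9 ± 2.83 RPKM. Of the 36 tested genes, 16 were at 5 RPKM or more, 9 lay from 1 to 5 RPKM and 11 lay below 1 RPKM. Among NMDA genes Grin2b, the Grin2 gene typical of early development, led with 7.01 ± 0.589 RPKM, above Grin1 with 1.71 ± 0.220 RPKM, and Grin2a, whose product is known to replace it in part after birth, was at 0.0924 ± 0.0202 RPKM. Without strand information, the levels of Grin1, Grin2d and Grin3b may include reads of the genes Grin1os, Gm45441 and Tmem259, whose exons overlap theirs by 643 to 1307 bases. These overlapping genes are counted too, and how reads in shared exons were assigned is not known, so the levels may also lack such reads.

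**Figure D1:**
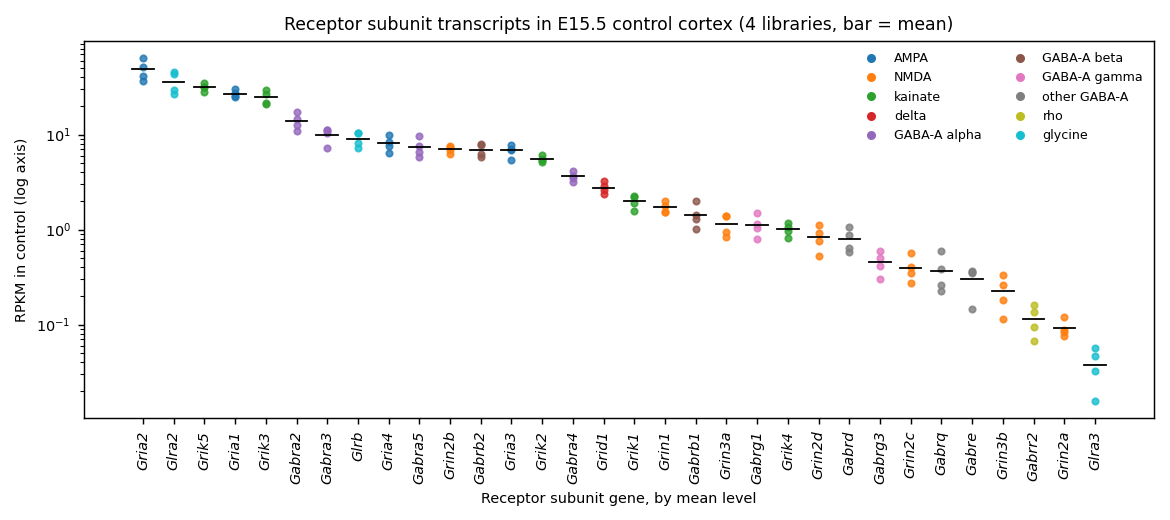
Level of 32 of the 36 tested subunit genes in the 4 control libraries, as RPKM on a log axis, with genes ordered by mean along the horizontal axis. Points are libraries, bars are means and colours are receptor classes. Gria2 stands first with a mean of 48.5 RPKM, 14 of the 32 lie at 5 RPKM or more, and Glra3 lies last with a mean of 0.0379 RPKM.

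The 6 genes that did not pass the filter were Gabra6, Gabrp, Gabrr1, Gabrr3, Glra1 and Glra4. None exceeded 8 counts in any library. A count of 0 allows up to 3 counts, which is 0.0914 to 0.192 CPM depending on the library, and this limit covers counting error only. Gabra6 belongs to cerebellar granule cells in the adult, Glra1 to the adult spinal cord and brainstem, and Gabrr1 to the retina.

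Against control, 7 of the 36 tested genes were called in the BAF155 cKO at an adjusted p under 0.05 (edgeR's quasi-likelihood test, Benjamini-Hochberg adjustment over 16511 genes), which is 19.4% of them beside 13.6% of all genes tested. Gria1, Gria4, Grik2, Grid1 and Glra3 rose, and Grin2b and Grin2c fell. The 5 that rose were 13.9% of the tested subunit genes, beside 6.04% of all genes, and the 2 that fell were 5.56% beside 7.56%. The median log2 fold change of the 36 was 0.28, beside 0.01 over all genes, and 28 of the 36 estimates lay above 0, beside 51.0% of all genes. In 4 of the 36, Gria4, Grik2, Grin2b and Grin2c, the 4 cKO libraries did not overlap the 4 controls, a share of 11.1% beside 14.4% of all genes. The 2 above control were 5.56% beside 6.47% of all genes, and the 2 below 5.56% beside 7.95%. The count of 7 depended on the libraries. It was 4 (11.1%) without BAF155 cKO replicate 3 or 4 or control replicate 3, beside 11.9%, 5.97% and 6.92% of all genes. Without BAF155 cKO replicate 2 or control replicate 1 it was 11 (30.6%), beside 24.5% and 19.4%. It was 2 (5.56% beside 3.98%) with the lane 1 cKO libraries alone and 13 (36.1% beside 12.4%) with the lane 3 cKO libraries alone. Against the 2 female controls alone 10 genes were called, 27.8% beside 25.1% of all genes. Of these 10, Gria4, Grik2, Grin2b and Grin2c, 4 genes, were among the 7. The other 3 calls were lost there, with log2 fold changes of 0.33 (adjusted p = 0.0520) for Gria1, 0.46 (adjusted p = 0.0963) for Grid1 and 1.70 (adjusted p = 0.0632) for Glra3.

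In the libraries labelled Pax6 cKO, 10 of the 36 were called, 27.8% of them beside 35.5% of all genes tested. Gria4, Grik2, Gabra2, Gabra4, Gabrg1, Gabrr2 and Glrb rose, and Gria3, Grin2b and Grik5 fell. The 7 that rose were 19.4% beside 16.6% of all genes, and the 3 that fell 8.33% beside 18.9%. The median log2 fold change was 0.22 over the 36 and 0.02 over all genes, with 24 of the 36 estimates above 0. Libraries did not overlap for 7 of the 36, 19.4% beside 35.6% of all genes, with 5 above control (13.9% beside 17.2%) and 2 below (5.56% beside 18.3%). Against the 2 controls of the same sex 3 of the 10 calls remained, those of Gria3, Gria4 and Grin2b, while calls over all genes went from 5866 to 1375. That fit has 2 controls in place of 4.

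Both comparisons use the same 4 controls. Gria4 and Grik2 were called higher and Grin2b lower in both, Gria1, Grid1, Glra3 and Grin2c were called in the BAF155 cKO alone, and Gria3, Grik5, Gabra2, Gabra4, Gabrg1, Gabrr2 and Glrb in the libraries labelled Pax6 cKO alone. Between the 2 cKO groups 4 genes were called, 11.1% of the 36 beside 4.31% of all genes, and 21 of the 36 were called in none of the 3 comparisons. The shares of all genes called in both, in 1 alone or in none were not counted. The sizes of these sets therefore say nothing particular about the subunit genes. Values of a gene across libraries are listed in the order of the replicate numbers, 1 to 4. A call in one comparison and not in another is no test of a difference between them, and the direct contrast of the 15 genes called in at least 1 comparison is given after the receptor classes.

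**Figure D2:**
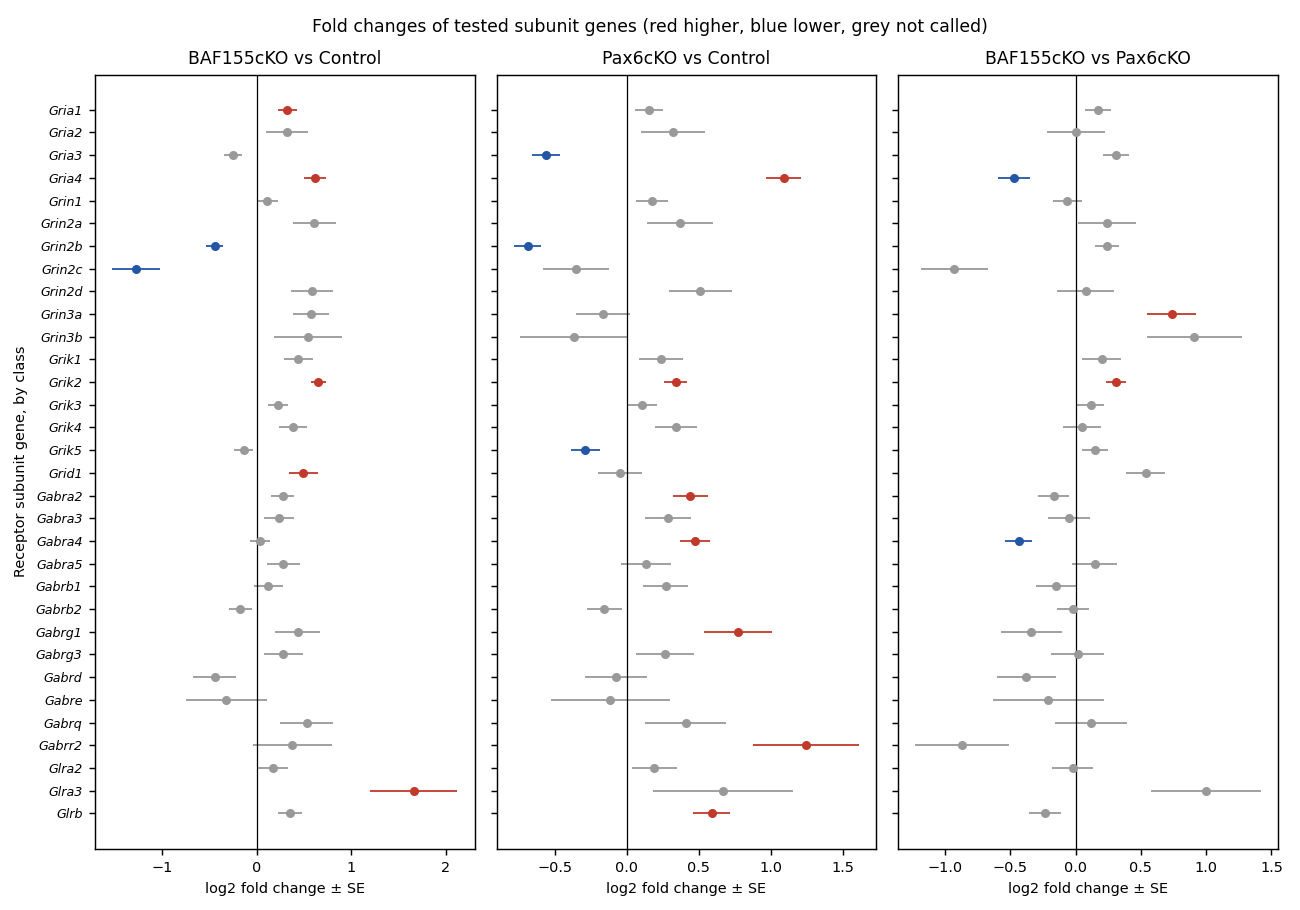
Log2 fold change of 32 of the 36 tested subunit genes, in rows grouped by receptor class, in the 3 comparisons named above the panels. Points are estimates, whiskers are SE, red marks genes called higher, blue genes called lower and grey genes not called. Gria4 and Grik2 are red and Grin2b is blue in both comparisons with control, and Grin2c (−1.28) and Glra3 (1.66) are the extremes of the left panel.

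The upstream sequences of the 2 genes that were called higher in both comparisons are shown because their counts moved the same way against control. Each window runs from 250 bases before to 50 bases after the RefSeq start (GRCm38.p6), 5′ to 3′ on the gene's strand, and capitals mark the E-box CANNTG, the motif of basic helix-loop-helix factors, which reads as CANNTG on both strands.
Gria4, chr9:4796185-4796484, minus strand: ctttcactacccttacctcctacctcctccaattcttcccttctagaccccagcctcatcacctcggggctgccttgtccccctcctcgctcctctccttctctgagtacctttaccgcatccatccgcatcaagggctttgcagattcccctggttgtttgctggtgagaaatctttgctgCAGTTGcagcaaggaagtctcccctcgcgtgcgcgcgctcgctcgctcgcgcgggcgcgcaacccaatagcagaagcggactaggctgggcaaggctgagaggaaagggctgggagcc
Grik2, chr10:49788705-49789004, minus strand: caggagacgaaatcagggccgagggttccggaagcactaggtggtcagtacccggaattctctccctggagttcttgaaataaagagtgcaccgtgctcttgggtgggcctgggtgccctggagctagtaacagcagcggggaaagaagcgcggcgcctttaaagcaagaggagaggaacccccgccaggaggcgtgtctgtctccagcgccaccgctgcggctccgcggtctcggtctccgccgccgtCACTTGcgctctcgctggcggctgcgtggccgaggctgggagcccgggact
Both windows hold 1 E-box, 68 bases before the start in Gria4 and across the start in Grik2. An E-box was found in 57.6% of the 33 windows of the 29 subunit genes that the table holds and in 72.3% of its 32851 windows. Each motif was searched by itself, so matches of different motifs may overlap. The letters GGGCGG, the GC box, searched on both strands, were in neither of the 2 windows, in 45.5% of the subunit windows and in 35.7% of all windows. Grin2b, Gria1, Gria3 and Grid1 are among the genes without a window in the table.

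Of the AMPA subunit genes, Gria4 rose and stood apart from control in both cKO groups. Gria4 (ENSMUSG00000025892, chromosome 9, 4417896 to 4796234, minus strand, all coordinates mm10) encodes a subunit with fast kinetics that is prominent in interneurons of the cortex. Gria4 measured 62.1, 52.8, 40.7 and 47.4 CPM across the 4 controls, 69.5, 68.8, 83.9 and 89.7 CPM across the 4 BAF155 cKO libraries and 101, 107, 106 and 118 CPM across the 4 labelled Pax6 cKO. Every cKO library lay above every control, and the libraries labelled Pax6 cKO lay above those of the BAF155 cKO. Gria4 had log2 fold changes against control of 0.62 (SE 0.12, adjusted p = 0.00408) for the BAF155 cKO and 1.09 (SE 0.12, adjusted p = 1.90e-05) for the libraries labelled Pax6 cKO. The call in the BAF155 cKO was lost with its lane 1 libraries alone (adjusted p = 0.0793).

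Gria3 (ENSMUSG00000001986, chromosome X, 41400854 to 41678601, plus strand) and Gria1 (ENSMUSG00000020524, chromosome 11, 57011387 to 57330244, plus strand) were called in opposite directions, each in another comparison. Gria3 measured 69.7, 53.5, 76.7 and 68.6 CPM across the 4 controls, 57.5, 58.5, 57.5 and 52.0 CPM across the 4 BAF155 cKO libraries and 42.99, 46.1, 44.3 and 48.6 CPM across the 4 labelled Pax6 cKO. The libraries labelled Pax6 cKO lay below every control, while BAF155 cKO libraries lay within or below the control range. Gria3 had log2 fold changes against control of −0.56 (SE 0.10, adjusted p = 8.33e-04) for the libraries labelled Pax6 cKO and −0.25 (SE 0.10, adjusted p = 0.0912) for the BAF155 cKO. Against female controls alone the BAF155 cKO estimate passed the threshold, at −0.38 (adjusted p = 0.00954). Gria3 is 1 of 5 X-linked genes among the 36, and this last comparison is between libraries of the same sex. Gria1 measured 183, 149.6, 155 and 166 CPM across the 4 controls, 169, 205, 229.9 and 214 CPM across the 4 BAF155 cKO libraries and 169, 193, 174 and 191 CPM across the 4 labelled Pax6 cKO. Gria1 overlapped between the groups, with BAF155 cKO replicate 1 inside the control range and replicates 2 to 4 above it. Gria1 had log2 fold changes against control of 0.32 (SE 0.10, adjusted p = 0.0413) for the BAF155 cKO and 0.15 (SE 0.10, adjusted p = 0.237) for the libraries labelled Pax6 cKO. The BAF155 cKO call of Gria1 was lost on leaving out BAF155 cKO replicate 3 or 4 or control replicate 2, 3 or 4 (adjusted p = 0.0847 to 0.115).

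Gria2 measured 996, 805, 643 and 571 CPM across the 4 controls, 1322, 656, 731 and 1063 CPM across the 4 BAF155 cKO libraries and 1123, 682, 1015 and 938 CPM across the 4 labelled Pax6 cKO. All groups of Gria2 overlapped, and the controls themselves spanned a wide range. Gria2 had log2 fold changes against control of 0.32 (SE 0.22, adjusted p = 0.314) for the BAF155 cKO and 0.32 (SE 0.22, adjusted p = 0.275) for the libraries labelled Pax6 cKO. Gria2 had the highest mean level of the AMPA genes in every group, at 48.5 ± 12.1, 60.7 ± 19.8 and 60.4 ± 12.1 RPKM in control, the BAF155 cKO and the libraries labelled Pax6 cKO. Gria4 made up 8.91% ± 0.697 of the summed AMPA RPKM in control, 11.1% ± 1.84 in the BAF155 cKO and 15.4% ± 1.85 among those labelled Pax6 cKO (mean ± SD, n = 4). Gria3 made up 7.70% ± 1.78, 5.19% ± 0.984 and 4.14% ± 0.510 in the same order. The ratio of Gria4 to Gria3 RPKM was 1.21 ± 0.319 in control, 2.18 ± 0.398 in the BAF155 cKO and 3.71 ± 0.0770 in the libraries labelled Pax6 cKO, with no overlap between any of the 3 groups.

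**Figure D3:**
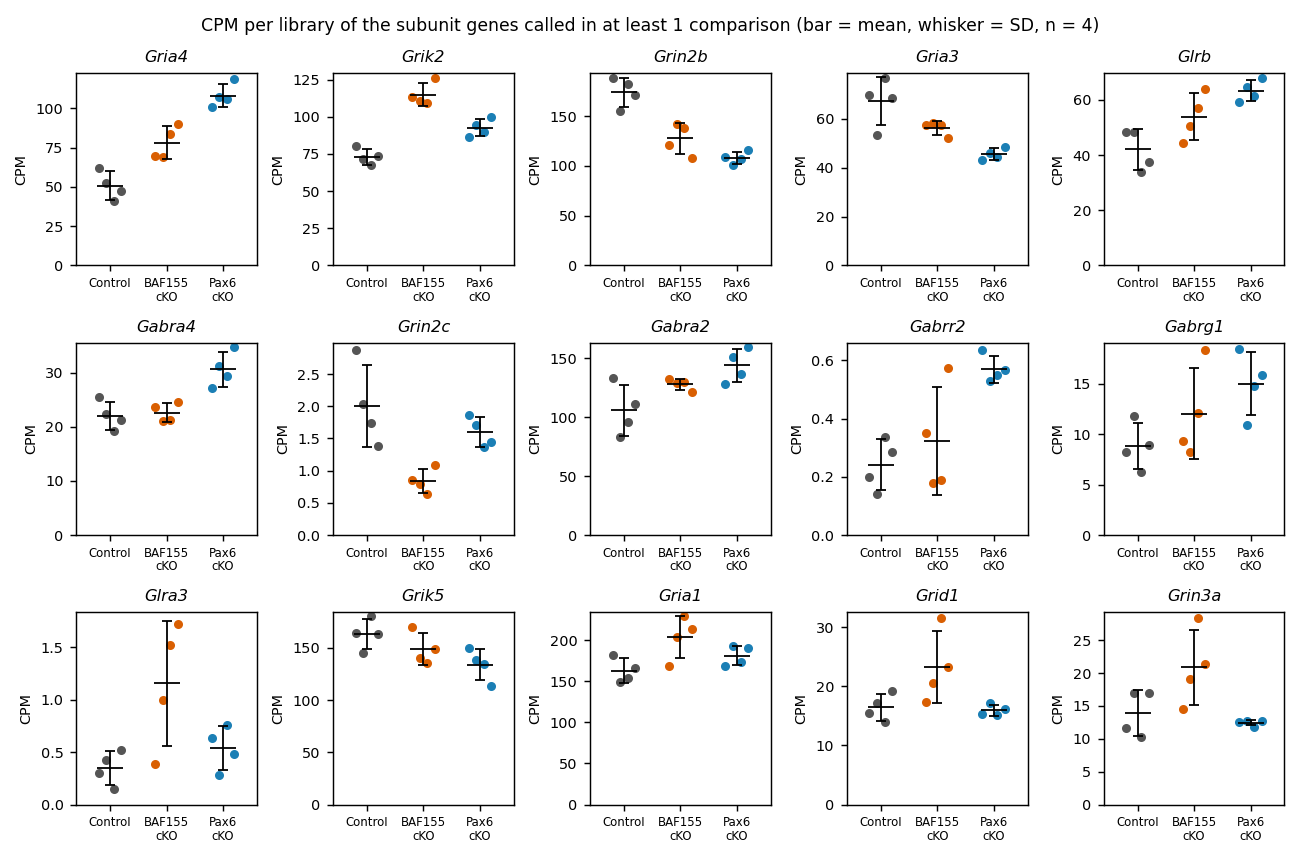
CPM in each library of the 15 subunit genes called in at least 1 comparison, 1 panel per gene, with control, BAF155 cKO and the libraries labelled Pax6 cKO along the horizontal axis. Points are libraries, bars are means, whiskers are SD (n = 4) and each vertical axis starts at 0. Gria4, Grik2 and Grin2b show cKO libraries apart from control in both groups, while Glra3, Gabrr2 and Grin2c lie under 3 CPM in every library.

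Of the NMDA subunit genes, Grin2b fell in both cKO groups and Grin2c fell in the BAF155 cKO. Grin2b (ENSMUSG00000030209, chromosome 6, 135713233 to 136173511, minus strand) encodes the glutamate-binding subunit of the receptors of the embryonic and newborn cortex. Grin2b measured 188, 155, 182 and 172 CPM across the 4 controls, 121, 143, 138 and 109 CPM across the 4 BAF155 cKO libraries and 109, 101, 107 and 116 CPM across the 4 labelled Pax6 cKO. Each cKO library lay below each control. Grin2b had log2 fold changes against control of −0.45 (SE 0.09, adjusted p = 0.00647) for the BAF155 cKO and −0.69 (SE 0.09, adjusted p = 1.30e-04) for the libraries labelled Pax6 cKO. The BAF155 cKO call was lost with its lane 1 libraries alone (adjusted p = 0.0582) and with its replicates 2 and 3 alone (adjusted p = 0.0978).

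Grin2c (ENSMUSG00000020734, chromosome 11, 115249169 to 115267243, minus strand) encodes a subunit known from the adult cerebellum, thalamus and astrocytes. Grin2c measured 2.88, 2.04, 1.74 and 1.39 CPM across the 4 controls, 0.854, 0.785, 0.634 and 1.09 CPM across the 4 BAF155 cKO libraries and 1.87, 1.71, 1.37 and 1.44 CPM across the 4 labelled Pax6 cKO. The 4 BAF155 cKO libraries lay below every other library. Its counts in the BAF155 cKO libraries were 22, 22, 10 and 17, against 87, 43, 36 and 29 in the controls, so the gene was called at a low level. Grin2c had log2 fold changes against control of −1.28 (SE 0.25, adjusted p = 0.00429) for the BAF155 cKO and −0.35 (SE 0.23, adjusted p = 0.246) for the libraries labelled Pax6 cKO. The BAF155 cKO call held in each of the 21 other settings tried. Between the 2 cKO groups it was −0.93 (SE 0.26, adjusted p = 0.0521).

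Grin1, the obligatory subunit gene, had log2 fold changes of 0.11 (adjusted p = 0.496) and 0.18 (adjusted p = 0.226) in the BAF155 cKO and the libraries labelled Pax6 cKO. With a correction for GC content and gene length the latter passed the threshold, at 0.45 (adjusted p = 0.0163). The share of Grin2b in the summed NMDA RPKM was 61.5% ± 4.13 in control, 48.5% ± 4.66 in the BAF155 cKO and 47.9% ± 3.49 in the libraries labelled Pax6 cKO. The ratio of Grin2b to Grin1 RPKM was 4.13 ± 0.572, 2.80 ± 0.589 and 2.26 ± 0.305 in the same order. The shares of both cKO groups lay below every control, while the ratio in 1 or more BAF155 cKO libraries reached the control range. Both measures carry the overlap of Grin1 with Grin1os. Grin2d, a subunit gene of interneurons, had log2 fold changes of 0.59 (adjusted p = 0.0856) and 0.51 (adjusted p = 0.0811), and Grin2a of 0.61 (adjusted p = 0.0842) and 0.37 (adjusted p = 0.216). Neither passed the test in either comparison, but both were called higher in some other settings. Grin2d was called in 5 of 21 other settings for the BAF155 cKO, among them female controls alone, at 0.95 (adjusted p = 0.0161). With the Pax6 cKO label it was called in 4 of 17, among them the GC and length correction, at 0.72 (adjusted p = 0.0331). Grin2a was called in 1 of 21 for the BAF155 cKO, without control replicate 1, at 0.77 (adjusted p = 0.0352). Grin3b, which overlaps Tmem259, had log2 fold changes of 0.54 (adjusted p = 0.298) and −0.36 (adjusted p = 0.466).

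**Figure D4:**
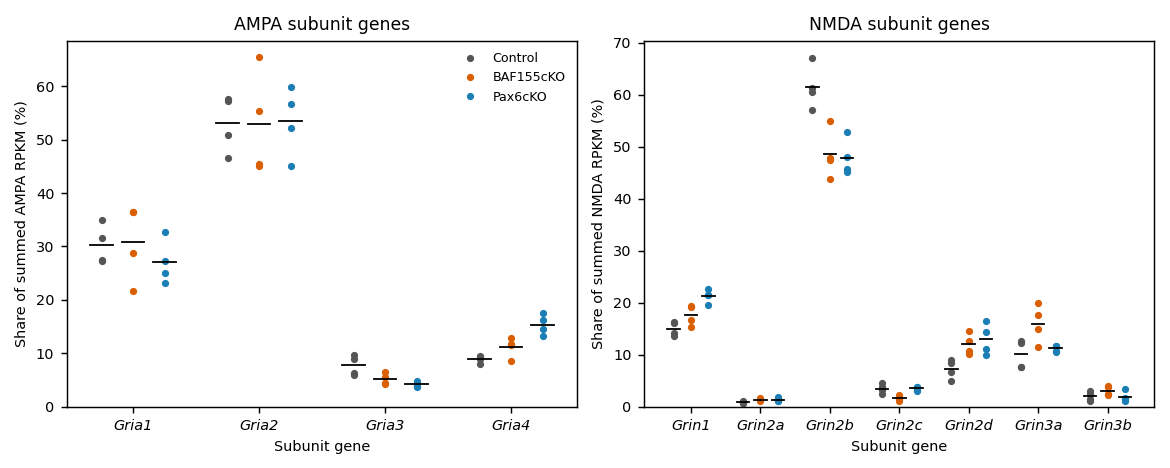
Share of each AMPA gene (left) and each NMDA gene (right) in the summed RPKM of its class, in percent, with genes along the horizontal axis. Points are libraries coloured by group and bars are group means. Gria4 goes from 8.91% in control to 15.4% in the libraries labelled Pax6 cKO, and Grin2b from 61.5% in control to 48.5% in the BAF155 cKO and 47.9% in the libraries labelled Pax6 cKO.

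Grin3a (ENSMUSG00000039579, chromosome 4, 49661611 to 49845744, minus strand) encodes a glycine-binding NMDA subunit that is high in developing neurons. Grin3a measured 11.7, 17.0, 10.3 and 16.9 CPM across the 4 controls, 14.6, 19.1, 28.3 and 21.4 CPM across the 4 BAF155 cKO libraries and 12.6, 12.8, 11.9 and 12.7 CPM across the 4 labelled Pax6 cKO. The libraries labelled Pax6 cKO were close together and inside the control range, while BAF155 cKO replicates 2 to 4 lay above every control. Between the cKO groups the log2 difference was estimated as 0.74 (SE 0.19, adjusted p = 0.0370), and the BAF155 cKO against control by 0.57 (SE 0.19, adjusted p = 0.0523). The call between the cKO groups was lost in 13 of 20 other settings, among them limma-voom (adjusted p = 0.0525). Against control Grin3a was called higher in the BAF155 cKO in 9 of 21 other settings, among them DESeq2, at 0.58 (adjusted p = 0.02295).

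Of the kainate subunit genes, Grik2 rose in both cKO groups and Grik5 fell in the libraries labelled Pax6 cKO. Grik2 (ENSMUSG00000056073, chromosome 10, 49094833 to 49788766, minus strand) encodes a principal subunit that forms channels by itself, and its upstream window is printed above. Grik2 measured 80.1, 71.6, 67.3 and 73.7 CPM across the 4 controls, 113, 111, 109 and 126 CPM across the 4 BAF155 cKO libraries and 86.6, 94.8, 89.7 and 99.9 CPM across the 4 labelled Pax6 cKO. The 3 groups did not overlap, with control lowest and the BAF155 cKO highest. Grik2 had log2 fold changes against control of 0.65 (SE 0.08, adjusted p = 9.01e-05) for the BAF155 cKO and 0.34 (SE 0.08, adjusted p = 0.00506) for the libraries labelled Pax6 cKO. The former held in each of the 21 other settings, and the latter was lost against male controls alone, at 0.29 (adjusted p = 0.0906).

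Grik5 (ENSMUSG00000003378, chromosome 7, 25009849 to 25072346, minus strand) encodes a high-affinity subunit that needs a principal subunit as partner. Grik5 measured 164, 145, 181 and 163 CPM across the 4 controls, 169.8, 140.0, 135 and 149 CPM across the 4 BAF155 cKO libraries and 149, 138, 134 and 114 CPM across the 4 labelled Pax6 cKO. The groups overlapped, with 1 of the libraries labelled Pax6 cKO inside the control range. Grik5 had log2 fold changes against control of −0.29 (SE 0.10, adjusted p = 0.0364) for the libraries labelled Pax6 cKO and −0.14 (SE 0.10, adjusted p = 0.346) for the BAF155 cKO. The call was lost on leaving out control replicate 3 or 4 or library 2, 3 or 4 labelled Pax6 cKO (adjusted p = 0.0528 to 0.117), and against male controls alone the estimate was −0.21 (adjusted p = 0.297). Grik3, another principal subunit gene, was not called. Grik3 measured 193, 188, 265 and 239 CPM across the 4 controls, 247, 259, 285 and 240.3 CPM across the 4 BAF155 cKO libraries and 231, 245, 239.9 and 236 CPM across the 4 labelled Pax6 cKO. Its groups overlapped and its log2 fold changes were 0.22 (adjusted p = 0.156) and 0.11 (adjusted p = 0.446). With a correction for GC content and gene length both passed the threshold, at 0.35 (adjusted p = 0.0122) and 0.34 (adjusted p = 0.00797). Grik1 and Grik4 had log2 fold changes of 0.44 (adjusted p = 0.0670) and 0.39 (adjusted p = 0.0865) in the BAF155 cKO and of 0.24 (adjusted p = 0.233) and 0.34 (adjusted p = 0.0791) for the libraries labelled Pax6 cKO. For the BAF155 cKO, Grik1 was called higher in 5 of 21 other settings, among them DESeq2, at 0.44 (adjusted p = 0.0383). Grik4 was called higher in 3 of 21, among them female controls alone, at 0.54 (adjusted p = 0.0392). With the Pax6 cKO label Grik4 was called in 1 of 17, the GC and length correction, at 0.46 (adjusted p = 0.0335).

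The delta receptor genes encode relatives of the ionotropic glutamate receptors that bind cerebellins at synapses. Grid1 (ENSMUSG00000041078, chromosome 14, 34820108 to 35583379, plus strand) rose in the BAF155 cKO. Grid1 measured 15.4, 17.1, 13.97 and 19.2 CPM across the 4 controls, 17.4, 20.5, 31.6 and 23.3 CPM across the 4 BAF155 cKO libraries and 15.3, 17.1, 15.1 and 16.2 CPM across the 4 labelled Pax6 cKO. BAF155 cKO replicate 1 lay inside the control range and replicate 3 lay highest of the 12. Grid1 had log2 fold changes against control of 0.49 (SE 0.15, adjusted p = 0.0452) for the BAF155 cKO and −0.04 (SE 0.15, adjusted p = 0.841) for the libraries labelled Pax6 cKO. The call was lost on leaving out BAF155 cKO replicate 3 or 4 or control replicate 1, 2 or 3 (adjusted p = 0.0657 to 0.134).

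Of the GABA-A and rho subunit genes tested, 15 in all, none was called in the BAF155 cKO by edgeR, by DESeq2 or by limma-voom, beside 13.6% of all genes by edgeR. At an unadjusted p under 0.05 there was 1 by edgeR, 1 by DESeq2 and 2 by limma-voom. In the libraries labelled Pax6 cKO 4 rose by edgeR, Gabra2, Gabra4, Gabrg1 and Gabrr2, which is 26.7% of the 15 beside 35.5% of all genes called in either direction and 16.6% called higher. Against the 2 male controls alone none of the 15 was called, beside 7.98% of all genes, and 5 had an unadjusted p under 0.05. The estimates of the 4 stayed above 0 there, at 0.36 to 1.68.

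Gabra2 (ENSMUSG00000000560, chromosome 5, 70957597 to 71095849, minus strand) is the alpha gene of highest level here. Gabra2 measured 133, 83.4, 95.6 and 112 CPM across the 4 controls, 132, 129, 129.6 and 121 CPM across the 4 BAF155 cKO libraries and 128, 151, 137 and 159.5 CPM across the 4 labelled Pax6 cKO. The groups overlapped, and controls 1 and 4 lay above controls 2 and 3. Gabra2 had log2 fold changes against control of 0.44 (SE 0.12, adjusted p = 0.0105) for the libraries labelled Pax6 cKO and 0.27 (SE 0.12, adjusted p = 0.127) for the BAF155 cKO. Against male controls alone the former was 0.41 (adjusted p = 0.108).

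Gabra4 (ENSMUSG00000029211, chromosome 5, 71569749 to 71658308, minus strand) encodes an alpha subunit of extrasynaptic receptors in the mature forebrain. Gabra4 measured 25.4, 22.3, 19.1 and 21.2 CPM across the 4 controls, 23.7, 21.02, 21.2 and 24.6 CPM across the 4 BAF155 cKO libraries and 27.2, 31.3, 29.4 and 34.8 CPM across the 4 labelled Pax6 cKO. The 4 libraries labelled Pax6 cKO lay above the other 8, and the BAF155 cKO libraries lay inside the control range. Gabra4 had log2 fold changes against control of 0.47 (SE 0.10, adjusted p = 0.00359) for the libraries labelled Pax6 cKO and 0.04 (SE 0.11, adjusted p = 0.826) for the BAF155 cKO. Against male controls alone the former was 0.36 (adjusted p = 0.0842).

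Gabrg1 (ENSMUSG00000001260, chromosome 5, 70751047 to 70842617, minus strand) encodes a gamma subunit and was the gamma gene with a call. Gabrg1 measured 8.23, 11.7, 6.29 and 8.93 CPM across the 4 controls, 9.36, 8.24, 12.05 and 18.3 CPM across the 4 BAF155 cKO libraries and 18.4, 10.9, 14.8 and 15.8 CPM across the 4 labelled Pax6 cKO. The groups of Gabrg1 overlapped. Gabrg1 had log2 fold changes against control of 0.77 (SE 0.24, adjusted p = 0.0202) for the libraries labelled Pax6 cKO and 0.43 (SE 0.24, adjusted p = 0.218) for the BAF155 cKO. The former call was lost without control replicate 3 or without library 1 labelled Pax6 cKO (adjusted p = 0.0663 to 0.0745), and against male controls alone the estimate was 0.59 (adjusted p = 0.236).

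Gabrb1 gave the smallest adjusted p of the beta genes over the 2 comparisons with control, in the libraries labelled Pax6 cKO. Gabrb1 measured 27.5, 17.8, 14.1 and 19.6 CPM across the 4 controls, 22.2, 21.7, 20.9 and 21.5 CPM across the 4 BAF155 cKO libraries and 27.9, 20.96, 24.3 and 22.5 CPM across the 4 labelled Pax6 cKO. The groups overlapped and the log2 fold changes were 0.12 (adjusted p = 0.606) and 0.27 (adjusted p = 0.182). Gabrd encodes the delta subunit of extrasynaptic receptors. Gabrd measured 3.07, 2.51, 1.84 and 1.67 CPM across the 4 controls, 1.40, 1.999, 1.97 and 1.34 CPM across the 4 BAF155 cKO libraries and 2.37, 2.44, 2.13 and 1.79 CPM across the 4 labelled Pax6 cKO. Its groups overlapped too, with log2 fold changes of −0.45 (adjusted p = 0.176) and −0.07 (adjusted p = 0.817). The alpha genes Gabra3 and Gabra5, the gamma gene Gabrg3, the beta gene Gabrb2 and the minor subunit genes Gabre and Gabrq were not called in either comparison, with log2 fold changes from −0.32 (Gabre) to 0.53 (Gabrq) in the BAF155 cKO and from −0.15 (Gabrb2) to 0.41 (Gabrq) in the libraries labelled Pax6 cKO.

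Of the 4 GABA-A and rho genes called in the libraries labelled Pax6 cKO, 3 lie in one cluster. On chromosome 5, within 1.4 Mb (70751047 to 72149037), lie Gabrg1, Gabra2, Gabra4 and Gabrb1, with log2 fold changes of 0.77, 0.44, 0.47 and 0.27 in the libraries labelled Pax6 cKO, the last not called. The cluster on the X chromosome (Gabre, Gabra3 and Gabrq) held no called gene in either comparison with control. This arrangement was noticed after the values were seen and was not tested. In the BAF155 cKO the chromosome 5 genes had log2 fold changes of 0.43, 0.27, 0.04 and 0.12, none called.

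Gabrr2 (ENSMUSG00000023267, chromosome 4, 33062999 to 33095865, plus strand) encodes a rho subunit best known from the retina. Gabrr2 measured 0.198, 0.142, 0.338 and 0.287 CPM across the 4 controls, 0.349, 0.178, 0.190 and 0.575 CPM across the 4 BAF155 cKO libraries and 0.636, 0.528, 0.549 and 0.568 CPM across the 4 labelled Pax6 cKO. Gabrr2 counts were 6, 3, 7 and 6 in control, 9, 5, 3 and 9 in the BAF155 cKO and 18, 13, 18 and 13 in the libraries labelled Pax6 cKO. Libraries labelled Pax6 cKO lay above every control, and BAF155 cKO replicate 4 lay among them. Gabrr2 had log2 fold changes against control of 1.24 (SE 0.37, adjusted p = 0.0165) for the libraries labelled Pax6 cKO and 0.38 (SE 0.42, adjusted p = 0.546) for the BAF155 cKO. Against male controls alone the former was 1.68 (adjusted p = 0.0501).

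Of the glycine receptor genes, Glrb rose in the libraries labelled Pax6 cKO and Glra3 rose from a very low level in the BAF155 cKO. Glrb (ENSMUSG00000028020, chromosome 3, 80843599 to 80913660, minus strand) encodes the beta subunit that binds the scaffold protein gephyrin. Glrb measured 48.4, 48.3, 34.0 and 37.5 CPM across the 4 controls, 44.4, 50.5, 57.1 and 63.8 CPM across the 4 BAF155 cKO libraries and 59.2, 64.8, 61.4 and 68.0 CPM across the 4 labelled Pax6 cKO. The libraries labelled Pax6 cKO lay above every control, and the BAF155 cKO libraries overlapped both. Glrb had log2 fold changes against control of 0.59 (SE 0.13, adjusted p = 0.00307) for the libraries labelled Pax6 cKO and 0.35 (SE 0.13, adjusted p = 0.0712) for the BAF155 cKO. Against controls of the same sex these were 0.39 (adjusted p = 0.0719) and 0.57 (adjusted p = 0.00787), so the call was lost in the former and gained in the latter.

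Glra3 (ENSMUSG00000038257, chromosome 8, 55940460 to 56130070, plus strand) encodes an alpha subunit known from the spinal cord and retina. Its counts were 9, 9, 3 and 11 in control, 10, 28, 24 and 27 in the BAF155 cKO and 18, 7, 25 and 11 in the libraries labelled Pax6 cKO. Glra3 measured 0.297, 0.426, 0.145 and 0.525 CPM across the 4 controls, 0.388, 0.999, 1.52 and 1.72 CPM across the 4 BAF155 cKO libraries and 0.636, 0.284, 0.762 and 0.480 CPM across the 4 labelled Pax6 cKO. BAF155 cKO replicate 1 lay inside the control range and replicates 2 to 4 above it. Glra3 had log2 fold changes against control of 1.66 (SE 0.46, adjusted p = 0.0294) for the BAF155 cKO and 0.67 (SE 0.49, adjusted p = 0.296) for the libraries labelled Pax6 cKO. The call was lost on leaving out BAF155 cKO replicate 3 or 4 or control replicate 3 (adjusted p = 0.0623 to 0.102). Glra2, the X-linked alpha gene that carries most glycine receptor transcript here, showed overlap between groups. Glra2 measured 143, 135, 84.5 and 93.3 CPM across the 4 controls, 108, 116, 128 and 161 CPM across the 4 BAF155 cKO libraries and 117, 134, 127 and 143 CPM across the 4 labelled Pax6 cKO. Its log2 fold changes were 0.17 (SE 0.16, adjusted p = 0.463) and 0.19 (SE 0.16, adjusted p = 0.355). The 2 male controls, at 143 and 135 CPM, lay above the 2 female ones, at 84.5 and 93.3 CPM. Against female controls alone the BAF155 cKO estimate was 0.51 (adjusted p = 0.0185), past the threshold. With male controls alone the estimate for the libraries labelled Pax6 cKO was −0.0951 (adjusted p = 0.7095).

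The direct contrast, BAF155 cKO minus the libraries labelled Pax6 cKO, called Gabra4 and Gria4 lower and Grin3a and Grik2 higher in the BAF155 cKO. The estimates were −0.44 (SE 0.10, adjusted p = 0.0290) for Gabra4, −0.47 (SE 0.12, adjusted p = 0.0378) for Gria4, 0.74 (SE 0.19, adjusted p = 0.0370) for Grin3a and 0.31 (SE 0.08, adjusted p = 0.0403) for Grik2. The 2 that rose were 5.56% of the 36, beside 2.3% of all genes, and the 2 that fell 5.56% beside 2.01%. The groups did not overlap for 7 of the 36, 19.4% beside 15.3% of all genes, with 4 higher in the BAF155 cKO (11.1% beside 7.5%) and 3 lower (8.33% beside 7.83%). All BAF155 cKO libraries were female and all libraries labelled Pax6 cKO male, so sex and group cannot be told apart in this contrast. The other 11 genes called against control were not called here. Grid1 and Gria3, whose cKO groups did not overlap, were higher in the BAF155 cKO libraries, with estimates of 0.54 (adjusted p = 0.0591) and 0.31 (adjusted p = 0.0841), and Grin2c was lower in them, as given above. The estimates were 0.17 (adjusted p = 0.331) for Gria1, 0.24 (adjusted p = 0.157) for Grin2b, 0.15 (adjusted p = 0.413) for Grik5, −0.17 (adjusted p = 0.437) for Gabra2 and −0.34 (adjusted p = 0.428) for Gabrg1. For Gabrr2, Glrb and Glra3 they were −0.87 (adjusted p = 0.173), −0.23 (adjusted p = 0.294) and 0.995 (adjusted p = 0.186). Each of the 4 calls was lost on leaving out some single library. Without BAF155 cKO replicate 1 or 4 the count was 3 (8.33%), beside 2.64% and 4.69% of all genes. Of these 3, 2 were among the 4, with Grid1 gained in the former fit and Grin2c in the latter. The count was 1 (2.78%) without BAF155 cKO replicate 3 or library 1 labelled Pax6 cKO, beside 2.75% and 2.4%. It was 0 by edgeR without BAF155 cKO replicate 2 or without library 2, 3 or 4 labelled Pax6 cKO, beside 1.83% to 2.51%. In each of those 4 fits 9 or 10 of the 36 had an unadjusted p under 0.05.

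Markers of cell types moved with both cKO groups. For the counts that follow, 6.04% of all genes were called higher and 7.56% lower in the BAF155 cKO. In the libraries labelled Pax6 cKO these shares were 16.6% and 18.9%. Of 8 markers of GABAergic neurons, 6 rose in each comparison with control, and their summed level was 559 to 816 CPM in control, 1091 to 1304 CPM in the BAF155 cKO and 1285 to 1398 CPM in the libraries labelled Pax6 cKO. Lhx6, a defining marker of interneurons from the medial ganglionic eminence, was not called, with log2 fold changes of −0.02 (adjusted p = 0.871) and 0.05 (adjusted p = 0.686). Of 6 markers of cortical excitatory neurons, 4 fell in the BAF155 cKO and 5 in the libraries labelled Pax6 cKO, and their sums were 2233 to 3111, 1312 to 1919 and 1372 to 1528 CPM in the same order. Of 6 radial glia markers 4 and 5 fell, with sums of 1142 to 1550, 736 to 1088 and 821 to 877 CPM. Of 5 Cajal-Retzius markers 4 and 5 rose, with sums of 369 to 521, 560 to 585 and 682 to 724 CPM. Of 4 basal progenitor markers 2 and 4 fell, with sums of 443 to 725, 237 to 380 and 222 to 231 CPM. The lists for 6 other sources had calls in both directions or few calls. In the BAF155 cKO and the libraries labelled Pax6 cKO, in that order, the genes called were 4 and 3 of 5 for oligodendrocyte precursors, 2 and 1 of 5 for microglia, 1 and 1 of 5 for meninges, 1 and 1 of 4 for erythroid cells and 4 and 3 of 5 for thalamus. Of 5 endothelial markers Cldn5 was called, higher, in the libraries labelled Pax6 cKO. No marker of these 11 lists was at 0 in all libraries of a group. The part of these shifts in the subunit results was not tested.

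In a list of 36 genes for auxiliary subunits and anchoring proteins, chosen like the other lists with earlier results of these data known, 5 were called lower in the BAF155 cKO and the other 31 did not pass the test, and 1 was called higher and 11 lower in the libraries labelled Pax6 cKO. Of all genes tested, 7.56% were called lower in the BAF155 cKO, and 16.6% higher and 18.9% lower in the libraries labelled Pax6 cKO. The median log2 fold change of this list was −0.02 and −0.13, beside 0.01 and 0.02 over all genes. Cbln2, a cerebellin that links neurexins to delta receptors, fell in both, with log2 fold changes of −1.05 (SE 0.11, adjusted p = 1.15e-05) and −0.97 (SE 0.10, adjusted p = 1.37e-05). Nlgn1, a neuroligin of excitatory synapses, had log2 fold changes of −0.65 (adjusted p = 3.49e-04) and −0.55 (adjusted p = 6.66e-04). Homer1, a scaffold of glutamatergic synapses, had log2 fold changes of −0.47 (adjusted p = 0.00408) and −0.25 (adjusted p = 0.0465), and Gsg1l, an auxiliary AMPA subunit gene, had −0.82 (adjusted p = 0.00470) for the libraries labelled Pax6 cKO. Cacng5, which encodes a transmembrane AMPA regulatory protein, was the one called higher, with 0.84 (adjusted p = 6.63e-04) there. Between the cKO groups Lhfpl4 and Gsg1l were higher and Cacng5 lower in the BAF155 cKO, with 0.38 (adjusted p = 0.0175), 0.80 (adjusted p = 0.0279) and −0.63 (adjusted p = 0.0199).

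Of 9 metabotropic glutamate and GABA receptor genes, 3 rose and 1 fell in the BAF155 cKO, and 2 rose and 3 fell in the libraries labelled Pax6 cKO. Beside these counts, 13.6% and 35.5% of all genes tested were called in either direction. The median log2 fold changes were −0.02 and −0.07. Grm8, a presynaptic group III receptor gene, rose in both, with log2 fold changes of 0.76 (adjusted p = 0.0343) and 1.09 (adjusted p = 0.00202), and so did Grm4, with 0.58 (adjusted p = 0.0455) and 0.53 (adjusted p = 0.0321). Grm7 rose in the BAF155 cKO with 0.79 (adjusted p = 0.0158), and Grm3 was lower there with −0.80 (adjusted p = 0.0351). The calls that fell with the Pax6 cKO label included Gabbr2 with −0.40 (adjusted p = 0.0105) and Grm2 with −0.55 (adjusted p = 0.0162).

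Of 17 genes for transmitter synthesis, vesicular loading, uptake and the chloride gradient, 16 were tested; 6 rose and 4 fell in the BAF155 cKO, and 5 rose and 5 fell in the libraries labelled Pax6 cKO. Beside these counts, 13.6% and 35.5% of all genes tested were called in either direction. The median log2 fold changes were 0.33 and 0.25. The GABA-synthesis gene Gad1 rose in both, with log2 fold changes of 1.19 (SE 0.16, adjusted p = 1.57e-04) and 1.28 (SE 0.16, adjusted p = 4.66e-05), as did Gad2, with 0.70 (adjusted p = 0.00790) and 0.52 (adjusted p = 0.0155). Slc32a1, the vesicular GABA transporter gene, also rose in both, with 0.70 (adjusted p = 0.0151) and 0.60 (adjusted p = 0.0133). The vesicular glutamate transporter gene Slc17a6 fell in both, with log2 fold changes of −0.43 (adjusted p = 0.00170) and −1.23 (adjusted p = 4.46e-08), and Slc17a7 fell in the libraries labelled Pax6 cKO with −0.85 (adjusted p = 9.75e-04). Slc1a3, the glutamate transporter gene of radial glia and also a marker in the list above, had −1.01 (adjusted p = 1.49e-06) and −0.46 (adjusted p = 0.00133). Slc6a11 fell in both, with −0.84 (adjusted p = 0.00239) and −0.50 (adjusted p = 0.0182). Between the cKO groups Slc17a6 and Slc17a7 were higher and Slc1a3 lower in the BAF155 cKO, with 0.80 (adjusted p = 5.04e-05), 0.77 (adjusted p = 0.00981) and −0.55 (adjusted p = 0.00230). Gad1, Gad2 and Slc32a1 are also among the 8 GABAergic markers.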

How the data were processed

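The deposited values are raw counts of reads per gene, whole numbers in 1 table per library without normalization or header, as the authors left them. Reads had been placed on mm10 (per the submitters' processing notes). An aligner, a counting program or an annotation is not given in the sources used for this work. Per the labels' protocols, RNeasy RNA went into TruSeq RNA v2 libraries, a preparation that does not mark strand, so reads of overlapping genes on opposite strands cannot be told apart. Symbols, coordinates and exonic lengths came from GENCODE M21, which held 48349 of the 48709 identifiers listed. Groups and replicate numbers came from the sample titles.

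Tests used edgeR 4.0.16 in R 4.3.3 (filterByExpr, TMM scaling, robust quasi-likelihood fit over all 12 libraries with 1 coefficient per group). Of the genes listed, 16511 were tested, with Benjamini-Hochberg adjustment over all of them and a threshold of 0.05. The SE of a log2 fold change is its size divided by the square root of F. Totals of 15.2 to 32 M counts limit the precision of genes under about 1 CPM. Alternatives were DESeq2 1.42.0, limma-voom (limma 3.58.1), RLE size factors, genes unfiltered or kept at 1 CPM in 4 libraries, the 8 compared libraries alone, the replicate number as a block, a GC and length correction (loess, span 0.3), controls of the same sex, lanes 1 or 3 of the BAF155 cKO alone and leaving out each library. BAF155 cKO replicates 1 and 4 alone, and 2 and 3 alone, were added after seeing the data. Lanes were read from the count tables' names.

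The subunit genes and gene lists were chosen with earlier results of these data known. Values in every library are given for the called genes, at most 8 per comparison by adjusted p, the 8 of highest mean RPKM in control and, per class, the gene of smallest adjusted p. From each pathway list, at most 3 called genes are named per direction. Some genes that these rules would name are not reported here, and the counts include them. Upstream windows came from RefSeq (GRCm38.p6) by symbol and matched 29 of the 42 genes.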

Additional observations from a re-analysis of the deposited data

Results flagged for a closer look

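In 3 of 96 groups of 4 libraries of a subunit gene, 1 library lay far from the other 3 by the test for a single outlying value, which chance passes in about 1 of 20 groups. Gabra3 was at 43.1 CPM in library 2 labelled Pax6 cKO and at 48.8 to 49.7 CPM in the other 3. Gabre was at 0.694 CPM in control replicate 1 and at 1.66 to 1.72 CPM in the other controls. Gria3 was at 52.0 CPM in BAF155 cKO replicate 4 and at 57.5 to 58.5 CPM in the other 3. None of these 3 genes was called in the comparison with control of the group concerned.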

How the results depend on the processing

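No fold change that was called reversed under any alternative run. Calls of Grik2 and Grin2c in the BAF155 cKO and of Gria3, Gria4 and Grin2b in the libraries labelled Pax6 cKO held under all of them. The count of subunit genes called in the BAF155 cKO was 7 (19.4% beside 13.6% of all genes). It became 4 (11.4% beside 6.52%) with only the 8 libraries compared and 11 (30.6% beside 13.6%) with the GC and length correction. It was 2 (5.56% beside 3.98%) with lane 1 alone and 13 (36.1% beside 12.4%) with lane 3 alone. Leaving out 1 library gave 4 to 11 (11.1% to 30.6%), beside 5.97% to 24.5% of all genes. Over all genes the 2246 calls became 1035 with the 8 libraries compared and 4294 with controls of the same sex. They became 682 with lane 1 alone, 2097 with lane 3 alone, 5534 with replicates 1 and 4 alone and 653 with 2 and 3 alone. Leaving out 1 library gave 1001 to 4073. In the libraries labelled Pax6 cKO, controls of the same sex took the subunit calls from 10 to 3 and all calls from 5866 to 1375; leaving out 1 library gave 8 to 12 and 3825 to 6601. In the direct contrast the 4 subunit calls (11.1% beside 4.31% of all genes) became 7 (19.4% beside 8.11%) with DESeq2. They became 1 (2.78% beside 3.01%) with the replicate block and 2 (5.56% beside 4.32%) with the GC and length correction. The count was 1 (2.78% beside 2.74%) with lane 1 alone and 2 (5.56% beside 1.24%) with lane 3 alone. With BAF155 cKO replicates 1 and 4 alone it was 0 by edgeR, beside 2.82%, and 10 passed an unadjusted p under 0.05. Leaving out 1 library gave 0 to 3. Over all genes the 711 calls of the direct contrast became 1339 with DESeq2, 470 with lane 1 alone, 209 with lane 3 alone and 307 to 786 leaving out 1 library. The cause of these changes was not tested, and some of the fits also hold fewer libraries.

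The labels do not say whether the replicate numbers pair the samples. Same-numbered libraries had deviations from their group means correlated at −0.343 to 0.504, and at 0.137 to 0.504 for number 1. Libraries of different numbers were not compared in this way, so these values cannot decide whether the numbers pair samples. With the replicate block, 6 subunit genes and 2245 genes in all were called in the BAF155 cKO, 11 and 5689 in the libraries labelled Pax6 cKO and 1 and 497 between the cKO groups. In control, 16 subunit genes stood at 5 RPKM or more under each setting that gave levels. Depth limits Glra3, Gabrr2 and Grin2c, which lay under 3 CPM in every library.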

Other observations

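Shares of single genes in receptor classes other than AMPA and NMDA are given as the mean share of a gene in the summed RPKM of its class in control, then the BAF155 cKO, then the libraries with the Pax6 cKO label (mean ± SD over 4 libraries, no test). Among alpha genes of the GABA-A receptor Gabra2 made up 38.3% ± 6.03, 39.5% ± 5.81 and 41.0% ± 2.11, and Gabra3 made up 27.4% ± 2.47, 27.2% ± 3.42 and 26.5% ± 2.13. Both alpha shares overlapped between all 3 groups. Of the kainate sum, Grik5 held 48.8% ± 1.55, 40.9% ± 3.56 and 41.0% ± 3.19, and Grik2 held 8.60% ± 1.19, 12.4% ± 0.903 and 11.1% ± 1.09, with both cKO groups apart from control for both genes. Of the glycine receptor sum, Glrb held 20.2% ± 1.38, 22.1% ± 0.917 and 24.7% ± 0.455, where the libraries labelled Pax6 cKO lay above the other 8.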
